A study of Caenorhabditis elegans with 45 samples.

Results

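The expression of small heat shock protein genes was followed through adulthood in whole *Caenorhabditis elegans*. The 10 genes described here, of 25985 in the gene table, were listed by name: *hsp-16.1*, *hsp-16.2*, *hsp-16.11*, *hsp-16.41*, *hsp-16.48*, *hsp-16.49*, *hsp-12.3*, *hsp-12.6*, *hsp-43*, and *sip-1*. All 10 were found in the table. 6 of them had counts high enough to be tested, and 4 duplicated copies on chromosome V did not. The assignment of reads to these near-identical copies is uncertain, so their low counts may not measure their expression.

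Small heat shock proteins share an alpha-crystallin domain, and many of them, though not all, bind unfolding proteins so that they do not aggregate, without using ATP. In *C. elegans* the HSP-16 proteins are made in response to heat and other proteotoxic stress, under the control of the heat shock factor HSF-1 and the FOXO factor DAF-16, and reporters of *hsp-16.2* are widely used in studies of lifespan. Other members are expressed without stress: SIP-1 is found in oocytes and embryos, and HSP-43 in tissues that include the vulva and spermatheca. The HSP-12 proteins are the shortest of the family, and *hsp-12.6* is a known target of DAF-16.

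FEM and GEM, a pair of sterile strains, were compared. Both were grown from arrested first-stage larvae at the restrictive temperature on HT115 bacteria carrying the empty vector L4440. FEM worms carried *fem-3(q20)*, a temperature-sensitive gain-of-function allele that masculinizes the germline, so that sperm are made in excess and oocytes are not. GEM worms carried *gon-2(q388)* with *gem-1(bc364)*, a temperature-sensitive combination that leaves a degenerate gonad with incomplete penetrance: sperm, oocytes, and a few embryos can be present by day 4, and visibly fertile animals were picked off. Poly-A RNA was sequenced from pools of worms in 45 libraries, 23 FEM and 22 GEM, at 9 ages counted in hours post feeding. Day 1 stands for 41 and 49 h, day 2 for 65 and 73 h, and day 3 for 89 and 97 h. Days 4, 5, and 10 stand for 117, 137, and 257 h. The age of 41 h falls at the close of the molt into the adult. Each of the 18 groups of a strain and age held 2 or 3 libraries. The study's methods call replicates biological. The p-values measure the spread between libraries of a group, estimated for each gene over all 18 groups together. In whole worms, fewer cells of a type and less RNA per cell cannot be told apart.

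Between 12743415 and 43423210 reads were assigned to genes per library (median 21274966), and 16670 to 20163 genes were detected. Levels are given as log2 of the normalized count plus 1, and 1 read was worth a normalized count of 0.411 to 1.90. The median of all 16925 genes tested moved between groups, by 0.26 in FEM and 1.03 in GEM worms from day 1 to day 10 on the log2 scale, so that differences between the strains depend on how libraries are scaled. Of the marker genes, all 12 oocyte markers were detected in every library, and all 8 sperm markers were higher in FEM than in GEM worms over the 9 ages (median log2 difference 6.21). In that comparison 69.6% of all genes tested differed, and 44.6% of those were higher in FEM worms. Markers of muscle fell from day 1 to day 10 in both strains (8 of 8 in each), and markers of intestine fell in 8 of 8 cases in FEM and 7 of 8 in GEM worms. Of all genes tested, 51.1% changed and 28.9% rose in FEM worms, and 76.8% changed and 55.1% rose in GEM worms. A library stood apart in the genes described here, the second replicate of FEM at 89 h. Its *hsp-16.41* level was 5.44 log2 units above the mean of its replicates, and results that rest on it are given with and without it.

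In FEM worms all 6 members tested were higher on day 10 than on day 1, while 51.1% of all genes tested changed and 28.9% rose (limma, adjusted p under the threshold of 0.05). The FEM count was 4 and 5 without the first or the second 257 h replicate, which ended calls of *hsp-16.2* and *hsp-16.41*. In GEM worms 4 of 6 rose, among 76.8% of all genes that changed and 55.1% that rose. The median log2 change of the 6 members was 2.56 in FEM and 3.42 in GEM worms. After day 5, *hsp-12.3* and *hsp-12.6* rose in both strains. These were 2 of 6 members in FEM worms, where 17.0% of all genes changed between days 5 and 10 and 6.71% rose, and 2 of 6 in GEM worms, where 8.14% changed and 3.53% rose. Across the 9 ages as a whole, levels differed for 5 of 6 members in FEM worms, against a background of 64.6% of genes, and for 4 of 6 in GEM worms, against 84.5% (limma F test). The members that did not pass were *hsp-16.41* in FEM worms (adjusted p = 0.0662) and *hsp-16.2* and *hsp-16.41* in GEM worms (limma, adjusted p = 0.456 and 0.794).

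**Figure D1:**
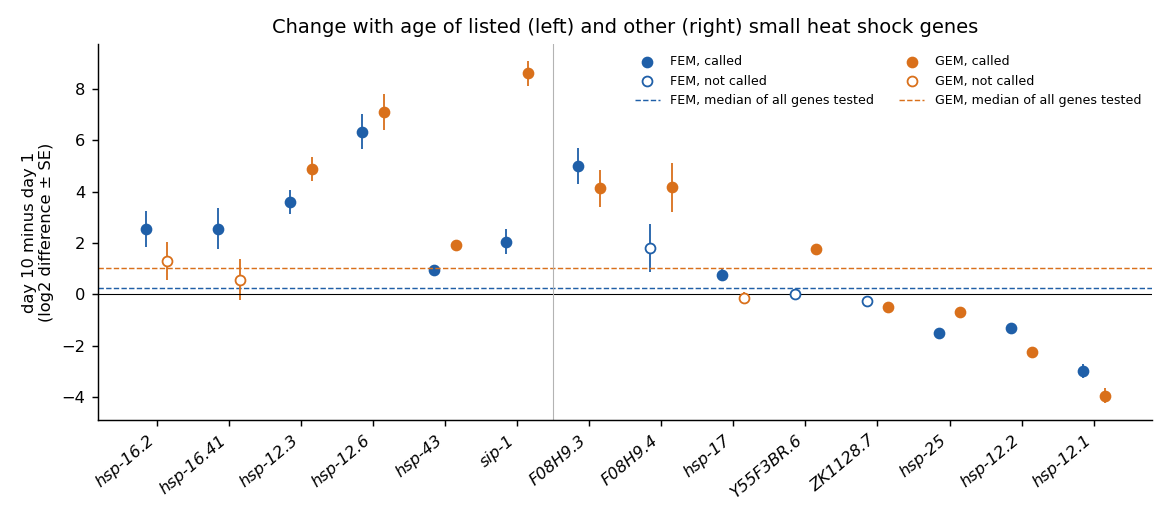
Change between day 10 (257 h) and day 1 (41 and 49 h) in FEM and GEM worms, as the log2 difference with its standard error. The 6 members tested are on the left and 8 other small heat shock genes on the right, filled points passed the limma test, and dashed lines mark the median of all genes in each strain (0.26 in FEM, 1.03 in GEM). *hsp-12.6* had the largest change of the members in FEM worms (6.34) and *sip-1* in GEM worms (8.61), while *hsp-12.1* fell in both.

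The 10 genes lie in 3 clusters and at 2 separate loci. In coordinates of WBcel235, *hsp-16.2* (V:1804334-1804957, minus strand) and *hsp-16.41* (V:1805178-1805875, plus strand) are transcribed away from each other with 220 bases between them. The other 4 HSP-16 genes form an inverted duplication on chromosome V, in the order *hsp-16.1* (V:9087293-9087782), *hsp-16.48* (V:9088131-9088617), *hsp-16.49* (V:9089280-9089766), and *hsp-16.11* (V:9090077-9090604). They are separated by 348, 662, and 310 bases. The copies in this duplication are near-identical, to the point that the annotation gives *hsp-16.11* the name of *hsp-16.1* and *hsp-16.49* that of *hsp-16.48*, so the split of reads between them is uncertain. On chromosome IV, *hsp-12.3* (IV:9444791-9445507) and *hsp-12.6* (IV:9446229-9447228) follow each other on the minus strand, 721 bases apart. *hsp-43* lies on chromosome X (X:6233151-6235543) and *sip-1* on chromosome III (III:10506106-10506801). Exons of *sip-1* share 123 bases with *F43D9.8*, and since reads were counted without regard to strand, reads from that stretch cannot be told apart.

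Per length of exon, *sip-1* was the most abundant member, at a mean log2 count per kilobase of 14.8 over the 18 group means, followed by *hsp-43* at 11.5. *hsp-16.2* and *hsp-16.41* came next at 8.33 and 8.04, then *hsp-12.3* at 7.10 and *hsp-12.6* at 3.85. The group means of *sip-1* and *hsp-12.6* also spread the most, with SDs of 2.35 and 2.23 log2 units over the 18 groups, against 0.64 for *hsp-43*. The neighbors *hsp-16.2* and *hsp-16.41* differed by less than the spread of their own group means (SD 0.85 and 0.88). At the low end, the 4 duplicated copies had means of 0.436 to 0.771 as counted here, with the uncertain split of reads given above.

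*hsp-16.1*, *hsp-16.11*, *hsp-16.48*, and *hsp-16.49* were absent from most libraries as counted here. Of their 180 values, 144 were 0 and 6 were above a normalized count of 10. *hsp-16.1* was at 0 in all 23 FEM libraries and above 0 in 6 of 22 GEM libraries, with 50.4 (51 reads) in the first replicate of GEM at 65 h and 47.4 (30 reads) in replicate 3 of GEM at 73 h. *hsp-16.48* reached 59.9 (43 reads) and 46.9 (40 reads) in the first and second replicates of FEM at 49 h. In those libraries the *hsp-16.2* count was 49.9 and 29.3, among its lowest. *hsp-16.11* reached 142 in the first replicate of FEM at 257 h and 34.5 (18 reads) in replicate 3 of FEM at 73 h, and *hsp-16.49* never went above 7.08 (9 reads, replicate 3 of GEM at 41 h). Where a copy was high, the other 3 copies were at or near 0 (at most 1.59), so the copies of this duplication were never high together. How reads that map to several places were handled is not given in the sources used here, and what it contributes to this pattern was not tested.

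**Figure D2:**
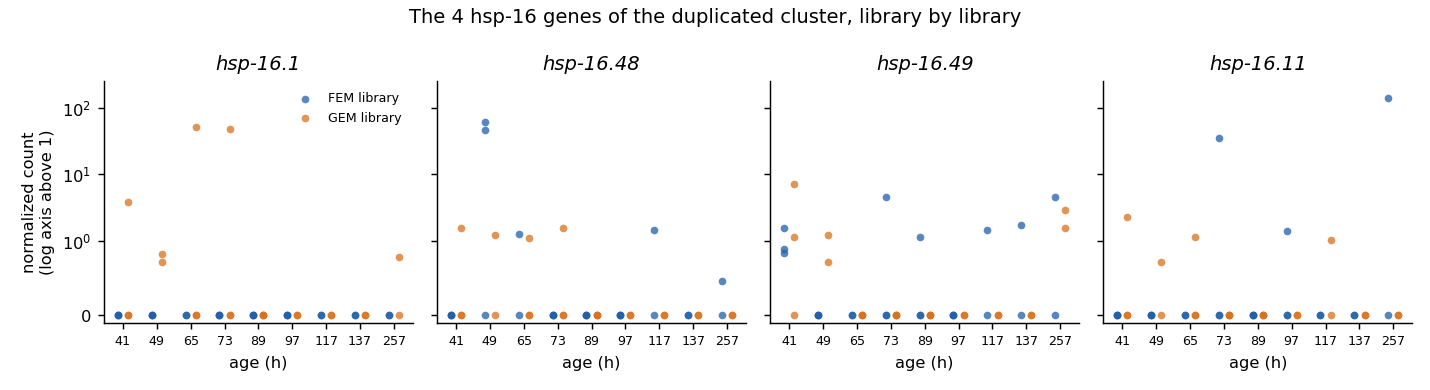
Normalized counts of the 4 duplicated HSP-16 genes in each library by age, on an axis that is logarithmic above 1, with FEM points left of GEM points at each age. Nearly all points sit at 0 (144 of 180), and the 6 values above 10 belong to scattered libraries of both strains.

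The divergent pair *hsp-16.2* and *hsp-16.41* was expressed throughout. In FEM worms the log2 level of *hsp-16.2* was 7.10, 6.49, and 6.85 at 41 h, 5.67, 4.92, and 6.04 at 49 h, 6.38 and 7.44 at 65 h, 7.57, 7.93, and 7.33 at 73 h, 7.16, 11.06, and 6.20 at 89 h, 5.37, 7.13, and 6.59 at 97 h, 8.70 and 6.43 at 117 h, 7.96 and 6.33 at 137 h, and 8.90 and 8.57 at 257 h. In GEM worms it was 7.36, 7.16, and 8.80 at 41 h, 8.73 and 7.60 at 49 h, 7.95, 8.24, and 7.26 at 65 h, 7.66, 7.83, and 7.50 at 73 h, 7.49, 7.37, and 6.98 at 89 h, 7.24 and 7.13 at 97 h, 7.85 and 7.91 at 117 h, 8.32 and 7.62 at 137 h, and 8.92 and 9.62 at 257 h. The FEM group mean was lowest at 49 h, and all FEM libraries were below the GEM libraries at 41, 49, and 257 h, with overlap at the other ages. *hsp-16.41* followed it closely. In FEM worms its level was 6.39, 6.13, and 6.23 at 41 h, 5.37, 4.62, and 5.63 at 49 h, 6.30, 11.30, and 5.41 at 89 h, and 8.24 and 8.35 at 257 h. In GEM worms it was 7.37, 7.21, and 8.86 at 41 h, 9.13 and 7.78 at 49 h, 7.42, 7.16, and 6.75 at 89 h, and 8.57 and 8.86 at 257 h. All FEM libraries lay below all GEM libraries of the same age at 41, 49, 65, 73, 97, and 257 h.

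Over the 9 ages, *hsp-16.2* and *hsp-16.41* were the 2 of 6 members that differed between the strains, both lower in FEM worms, where 69.6% of all genes tested differed. The log2 difference was −0.68 ± 0.26 (SE) for *hsp-16.2* and −1.01 ± 0.29 for *hsp-16.41* (limma, adjusted p = 0.022 and 0.0028), beside a median of −0.08 over all genes. Without the second replicate of FEM at 89 h the differences were −0.85 and −1.22 (limma, adjusted p = 0.00019 and 3.4e-07). The call for *hsp-16.2* was lost without the second replicate of FEM at 117 h (−0.56, limma, adjusted p = 0.059) or at 137 h (−0.59, adjusted p = 0.051). At 49 h the contrast was widest, where 4 of 6 members differed among 57.7% of all genes. *hsp-16.2* averaged 5.54 ± 0.57 in FEM worms (SD, n = 3) and 8.17 ± 0.80 in GEM worms (n = 2), and *hsp-16.41* averaged 5.20 ± 0.52 and 8.45 ± 0.96. These are log2 differences of −2.62 ± 0.79 and −3.25 ± 0.88 (limma, adjusted p = 0.0052 and 0.002). Both calls rested on the first replicate of GEM at 49 h, without which they were −2.06 and −2.57 (limma, adjusted p = 0.090 and 0.055).

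With age, the pair rose in FEM worms, by a log2 difference between day 10 and day 1 of 2.56 ± 0.71 for *hsp-16.2* and 2.57 ± 0.79 for *hsp-16.41*, or 5.88-fold and 5.93-fold (limma, adjusted p = 0.0032 and 0.0071). In GEM worms the same differences were 1.30 ± 0.73 and 0.58 ± 0.81 (limma, adjusted p = 0.11 and 0.52), and that of *hsp-16.41* turned negative when libraries were scaled by quantiles (−0.48) or centered on their median (−0.090). Without the second replicate of FEM at 89 h, *hsp-16.2* passed in GEM worms too (1.30, limma, adjusted p = 0.022). No FEM library enters that GEM difference, which stayed the same. What changed was the estimate of the spread, which all 18 groups share. Under the alternatives other than a library left out, the GEM difference of *hsp-16.2* ranged from 0.025 to 1.50 and never passed (limma, adjusted p = 0.064 to 0.98). The FEM calls were at the edge without a single day 10 library: 2.39 for *hsp-16.2* without the first (limma, adjusted p = 0.053), and 2.63 and 2.51 for *hsp-16.41* without the first or the second (adjusted p = 0.055 and 0.054). The changes of the strains were also compared directly. The FEM change minus the GEM change was 1.26 ± 1.02 for *hsp-16.2* and 1.99 ± 1.13 for *hsp-16.41* (limma, adjusted p = 0.29 and 0.13), which passed for *hsp-16.41* without the library that stood apart (adjusted p = 0.011) and with only the groups compared in the fit (adjusted p = 0.013). Under quantile scaling both passed, at 2.73 and 3.26 (limma, adjusted p = 0.030 and 0.019), and under centering *hsp-16.41* passed at 2.61 (adjusted p = 0.046). Within day 1, *hsp-16.2* differed by −1.27 between 49 and 41 h in FEM worms, with an adjusted p of 0.17 by limma, which was 0.045 without the second replicate of FEM at 89 h and 0.014 with only the groups compared.

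**Figure D3:**
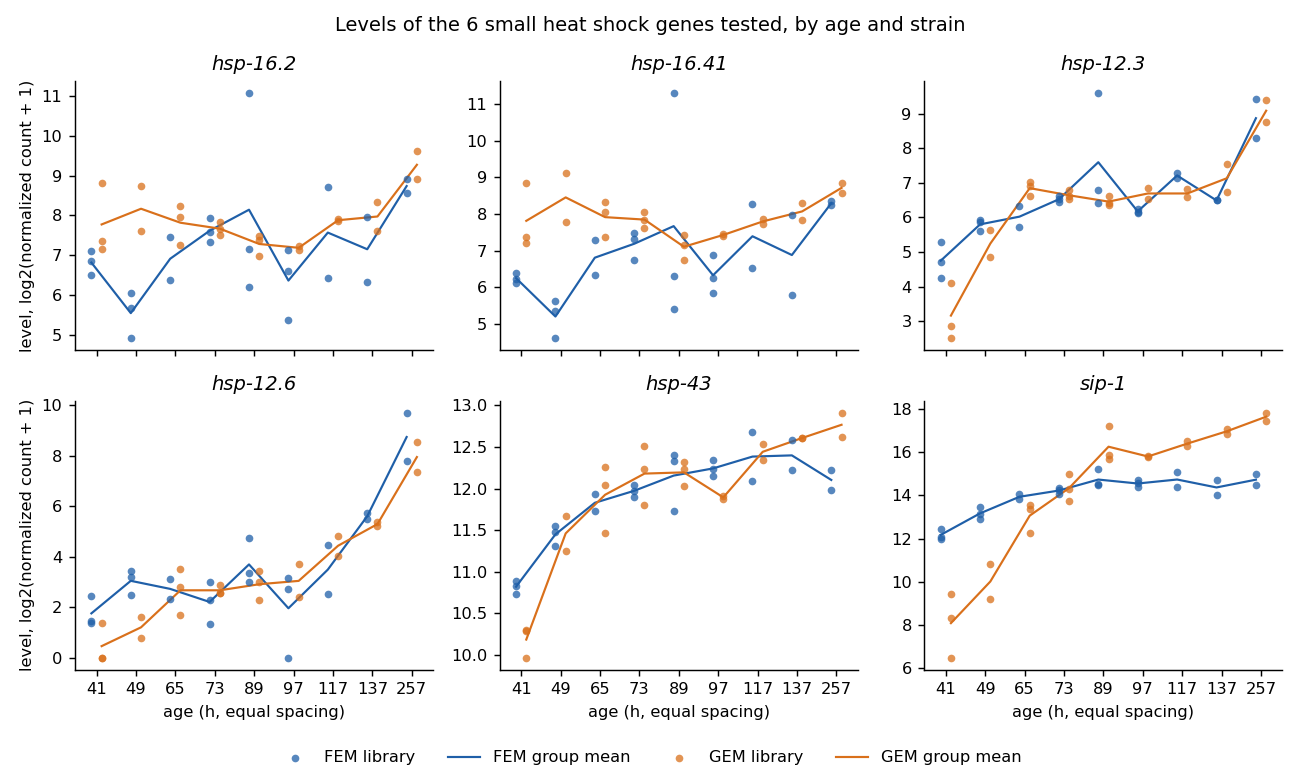
Log2 level (log2 of the normalized count plus 1) of the 6 members tested, by hours post feeding, with a point for each library and a line through the group means, FEM points left of GEM points at each age (ages equally spaced). *hsp-12.3* and *hsp-12.6* climb to 257 h in both strains, *sip-1* climbs most steeply in GEM worms, and the second replicate of FEM at 89 h stands out in *hsp-16.2*, *hsp-16.41*, and *hsp-12.3*.

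Replicates of a group varied more in this pair than in most genes. The SD between replicates, over 27 residual degrees of freedom, was 0.94 for *hsp-16.2* and 1.04 for *hsp-16.41*, larger than in 92.6% and 95.7% of the genes tested, for which the median was 0.34. For the other members tested that share was 89.7% (*hsp-12.6*), 78.6% (*sip-1*), 77.9% (*hsp-12.3*), and 23.5% (*hsp-43*). The largest deviation of both *hsp-16.2* and *hsp-16.41* belonged to the second replicate of FEM at 89 h. In that library *hsp-16.2* stood 4.39 and *hsp-16.41* 5.44 log2 units above the mean of its replicates, *hsp-12.3* 2.99, and *hsp-12.6* 1.59. The inducible Hsp70 gene *hsp-70* stood 1.33 above (9.81, against 8.97 and 7.98 in its replicates). The *hsp-16.2* deviation was above that of 99.98% of genes. In the same library 203 genes stood more than 2 log2 units above its replicates, within the range of 36 to 512 over the 45 libraries. Genes as far below were not counted. Without the FEM 89 h group the SDs were 0.65 and 0.61. Across the 45 libraries, deviations from the group mean of *hsp-16.2* and *hsp-16.41* had a Pearson r of 0.97 and a Spearman rho of 0.94, and r was 0.94 over 42 libraries without that group. *hsp-16.2* deviations also went with those of *hsp-70* (r 0.75, rho 0.83) and of another small heat shock gene, *hsp-17* (r 0.80, rho 0.70). Deviations of *hsp-16.41* and *hsp-12.3* had an r of 0.59 but a rho of 0.12, and r was −0.14 without that group, so that correlation rested on that group. These coefficients describe libraries that share scaling and RNA preparation, and no test was made of them.

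**Figure D4:**
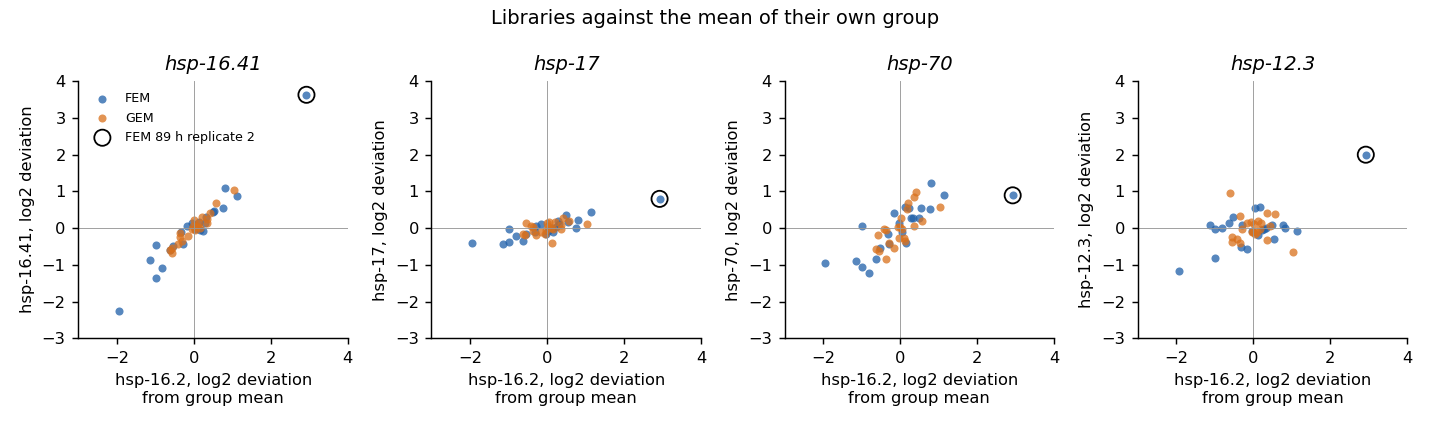
Deviation of each library from the mean of its group (log2 units) for *hsp-16.41*, *hsp-17*, *hsp-70*, and *hsp-12.3*, against that of *hsp-16.2*, with a point for each of 45 libraries and the second replicate of FEM at 89 h circled. *hsp-16.41* follows the diagonal throughout (r 0.97), while *hsp-12.3* departs from 0 with *hsp-16.2* mainly in the circled library.

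*hsp-12.3* encodes a short small heat shock protein. In FEM worms its log2 level was 4.72, 4.24, and 5.28 at 41 h, 5.60, 5.93, and 5.87 at 49 h, 6.33 and 5.71 at 65 h, 6.43, 6.52, and 6.62 at 73 h, 6.78, 9.59, and 6.42 at 89 h, 6.15, 6.25, and 6.13 at 97 h, 7.14 and 7.29 at 117 h, 6.49 and 6.49 at 137 h, and 9.44 and 8.31 at 257 h. In GEM worms it was 2.86, 4.11, and 2.51 at 41 h, 5.63 and 4.86 at 49 h, 7.03, 6.91, and 6.61 at 65 h, 6.52, 6.62, and 6.78 at 73 h, 6.61, 6.35, and 6.42 at 89 h, 6.54 and 6.85 at 97 h, 6.58 and 6.81 at 117 h, 7.55 and 6.72 at 137 h, and 9.41 and 8.77 at 257 h. Group means were lowest at 41 h and highest at 257 h in both strains, and from 65 to 137 h most libraries lay close together apart from the 1 FEM library at 89 h. The day 10 level exceeded that of day 1 by 3.60 ± 0.47 in FEM and 4.89 ± 0.48 in GEM worms, or 12.12-fold and 29.59-fold (limma, adjusted p = 8.9e-08 and 5.8e-11). Between days 5 and 10 the rise was 2.38 ± 0.58 in FEM and 1.95 ± 0.58 in GEM worms (limma, adjusted p = 0.0027 and 0.029). Its early step from 41 to 49 h in GEM worms was 2.08 ± 0.53 (limma, adjusted p = 0.0045), a call lost without the first 49 h replicate (1.70, adjusted p = 0.12). Of the later rise, the FEM call was lost without the first 257 h replicate (1.82, limma, adjusted p = 0.11). The GEM call was lost without the second 137 h replicate (1.54, adjusted p = 0.29) or either 257 h replicate (1.64 and 2.27, adjusted p = 0.19 and 0.076).

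Between the strains, *hsp-12.3* was 1 of 3 members of 6 that were higher in FEM worms at 41 h, where 52.4% of all genes tested differed, with a log2 difference of 1.59 ± 0.47 (limma, adjusted p = 0.0049). That call was lost under quantile scaling (0.25) and under centering (0.84). At 89 h it was 1 of 2 members called, among 44.3% of all genes, at 1.14 ± 0.47 (limma, adjusted p = 0.048). That value was 0.14 without the second FEM replicate (adjusted p = 0.79), and the call was lost with 32 of the 45 libraries left out in turn. Over the 9 ages it was 0.16 ± 0.18 (limma, adjusted p = 0.41), and the sign turned under quantile scaling (−0.54) and under centering (−0.45). The FEM change from day 1 to day 10 minus the GEM change was −1.29 ± 0.67 (limma, adjusted p = 0.097). It passed without the second FEM replicate at 89 h (adjusted p = 0.015), without the first FEM replicate at 257 h (−1.85, adjusted p = 0.041), without the second GEM replicate at 41 h (−1.53, adjusted p = 0.041), and with 41 h alone as day 1 (−1.80, adjusted p = 0.037). It turned to 0.22 under quantile scaling.

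*hsp-12.6*, the DAF-16 target, was barely detected in young adults and had the largest difference of the members between days 5 and 10 in both strains. In FEM worms its log2 level was 1.43, 2.45, and 1.37 at 41 h, 3.42, 3.20, and 2.50 at 49 h, 3.10 and 2.34 at 65 h, 3.00, 1.34, and 2.27 at 73 h, 3.33, 4.75, and 2.99 at 89 h, 2.70, 3.16, and 0 at 97 h, 4.44 and 2.52 at 117 h, 5.71 and 5.48 at 137 h, and 9.69 and 7.78 at 257 h. In GEM worms it was 0, 0, and 1.36 at 41 h, 1.62 and 0.78 at 49 h, 2.80, 3.51, and 1.69 at 65 h, 2.57, 2.55, and 2.87 at 73 h, 2.99, 2.28, and 3.45 at 89 h, 3.69 and 2.38 at 97 h, 4.82 and 4.04 at 117 h, 5.21 and 5.37 at 137 h, and 8.54 and 7.34 at 257 h. Most values before 117 h come from a few reads each, and all libraries at 257 h exceeded all libraries of any earlier age in both strains. Day 10 exceeded day 1 by 6.34 ± 0.68 in FEM and 7.12 ± 0.70 in GEM worms (limma, adjusted p = 1.5e-09 and 4.8e-11). These values depend on the pseudocount, and with 8 in place of 1 they were 5.10 and 4.83. Between days 5 and 10 the rise was 3.14 ± 0.83 in FEM and 2.65 ± 0.83 in GEM worms (limma, adjusted p = 0.0063 and 0.042). The GEM call was lost without any of the 4 GEM libraries of those days (2.06 to 3.25, limma, adjusted p = 0.077 to 0.27). The FEM call was lost without the first 257 h replicate (2.18, adjusted p = 0.21) or the second 137 h replicate (3.02, adjusted p = 0.054). Between the strains, *hsp-12.6* was higher in FEM worms at 49 h (1.84 ± 0.76, limma, adjusted p = 0.037), a call lost without any 1 of 4 libraries of that age (1.42 to 2.26, adjusted p = 0.052 to 0.23), with the pseudocount of 8 (0.71), under quantile scaling (1.57), and under centering (0.82). Its difference over the 9 ages was 0.29 ± 0.25 (limma, adjusted p = 0.31), which turned negative under quantile scaling (−0.14) and under centering (−0.32).

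*hsp-43* was the steadiest member. In FEM worms its log2 level was 10.84, 10.73, and 10.89 at 41 h, 11.56, 11.31, and 11.48 at 49 h, 12.58 and 12.22 at 137 h, and 11.99 and 12.22 at 257 h. In GEM worms it was 10.30, 9.97, and 10.29 at 41 h, 11.25 and 11.67 at 49 h, 12.61 and 12.61 at 137 h, and 12.62 and 12.91 at 257 h. FEM libraries were all above GEM libraries at 41 and 97 h and all below them at 137 and 257 h. Its SD between replicates was 0.24. Day 10 exceeded day 1 by 0.97 ± 0.19 in FEM and 1.94 ± 0.19 in GEM worms, or 1.96-fold and 3.85-fold (limma, adjusted p = 6e-05 and 6.4e-11), beside medians over all genes of 0.26 and 1.03. Under the alternatives other than a library left out, the *hsp-43* differences were 0.65 to 1.28 in FEM and 0.80 to 2.58 in GEM worms, and all passed. Part of the rise came between 41 and 49 h, where it was 0.63 ± 0.19 in FEM worms, where *hsp-43* was the 1 member of 6 called among 35.8% of all genes, and 1.28 ± 0.21 in GEM worms, where 3 of 6 members rose among 20.0% of all genes (limma, adjusted p = 0.0079 and 3.8e-05). The FEM step missed the threshold under quantile scaling (0.35) and centering (0.42). Direct comparison of the day 1 to day 10 changes gave 2 of 6 members called, *hsp-43* and *sip-1*, where 62.4% of all genes differed. For *hsp-43* the FEM change was smaller by a log2 difference of −0.98 ± 0.27 (limma, adjusted p = 0.0022), close to the median of all genes (−0.84). It was −0.36 under centering (adjusted p = 0.23), −0.65 with 49 h alone as day 1 (adjusted p = 0.069), and 0.34 under quantile scaling. At 257 h, where 2 of 6 members differed among 61.7% of all genes, *hsp-43* was lower in FEM worms (−0.66 ± 0.23, limma, adjusted p = 0.013), but it was 0.23 under quantile scaling. That call was lost without the first FEM replicate (−0.55, adjusted p = 0.10) or the second GEM replicate (−0.52, adjusted p = 0.12). At 41 h it was higher in FEM worms (0.63 ± 0.19, limma, adjusted p = 0.0049), at 0.31 under quantile scaling (adjusted p = 0.16) and −0.12 under centering.

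*sip-1*, a small heat shock gene of oocytes and embryos, showed the widest range of the members. In FEM worms its log2 level was 12.42, 12.09, and 11.99 at 41 h, 13.14, 12.88, and 13.47 at 49 h, 13.82 and 14.05 at 65 h, 14.08, 14.25, and 14.34 at 73 h, 14.48, 15.21, and 14.51 at 89 h, 14.70, 14.59, and 14.37 at 97 h, 14.40 and 15.08 at 117 h, 14.04 and 14.70 at 137 h, and 14.99 and 14.47 at 257 h. In GEM worms it was 9.44, 8.31, and 6.48 at 41 h, 9.18 and 10.84 at 49 h, 13.56, 12.23, and 13.39 at 65 h, 14.28, 14.99, and 13.75 at 73 h, 15.87, 15.71, and 17.20 at 89 h, 15.81 and 15.80 at 97 h, 16.52 and 16.29 at 117 h, 16.86 and 17.08 at 137 h, and 17.47 and 17.83 at 257 h. All FEM libraries were above all GEM libraries at 41, 49, and 65 h, the strains overlapped at 73 h, and all FEM libraries were below from 89 h on. Day 10 exceeded day 1 by 2.06 ± 0.47 in FEM and 8.61 ± 0.48 in GEM worms, or 4.18-fold and 391-fold (limma, adjusted p = 0.00043 and 7.4e-17). The FEM change minus the GEM change was −6.55 ± 0.67 (limma, adjusted p = 4.4e-10), and it was −5.89 under quantile scaling and −5.93 under centering. Within GEM worms the step from 41 to 49 h was 1.93 ± 0.52 (limma, adjusted p = 0.0079), a call lost without the third 41 h replicate (1.13, adjusted p = 0.085) or the second 49 h replicate (1.10, adjusted p = 0.22).

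At the separate ages, *sip-1* was called at 6 of 9 ages, more often than any other member. It was higher in FEM worms by 4.09 ± 0.47 at 41 h and 3.16 ± 0.52 at 49 h (limma, adjusted p = 4e-09 and 4.3e-06). At 65, 73, and 97 h limma called 0 of 6 members, among 48.6%, 38.1%, and 35.0% of all genes, and at an unadjusted p under 0.05 there were 0, 0, and 1, the last being *sip-1* at −1.25 (adjusted p = 0.062). It was lower in FEM worms at 89 h, with a log2 difference of −1.52 ± 0.47 (limma, adjusted p = 0.0081). At 117 and 137 h it was the 1 member of 6 called, among 46.1% and 55.1% of all genes, at −1.67 ± 0.57 and −2.60 ± 0.57 (limma, adjusted p = 0.017 and 0.00021). At 257 h the difference was −2.92 ± 0.57 (limma, adjusted p = 4.4e-05). The 89 h call was lost without the third GEM replicate (−1.06, adjusted p = 0.11), and the 117 h call without the first FEM replicate (−1.33, adjusted p = 0.14) or the first GEM replicate (−1.55, adjusted p = 0.099). Over the 9 ages the opposite signs met at −0.22 ± 0.17 (limma, adjusted p = 0.27), which passed under quantile scaling (−0.49) and centering (−0.83).

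Most oocyte markers, like *sip-1*, rose more in GEM than in FEM worms and ended lower in FEM worms. At 257 h, where 61.7% of all genes differed, 10 of 12 markers were lower in FEM worms and 2 were higher. The higher ones were *perm-2* and *perm-4*, at 17.49 and 18.04 in FEM worms, against 15.78 and 16.07 in GEM worms. Although FEM worms make no oocytes, these markers were detected in FEM libraries of every age. The mean log2 level of 12 markers, which include the yolk receptor gene *rme-2* and the maturation genes *oma-1* and *oma-2*, was at most 10.3 in FEM libraries and at least 13.8 in GEM libraries at 257 h. At 41 h it was 8.53 to 8.95 in FEM libraries and 3.62 to 5.04 in GEM libraries. Between days 1 and 10, 12 of 12 markers rose in GEM worms (median log2 difference 8.40) and 6 of 12 in FEM worms (median 0.80), and 12 of 12 had a lower change in FEM than in GEM worms. Of all genes tested, 55.1% rose in GEM and 28.9% in FEM worms. The change differed between the strains for 62.4% of all genes, and the median of FEM change minus GEM change was −0.84. Over the 18 group means, *sip-1* and the mean marker level had a Pearson r of 0.98 and a Spearman rho of 0.94, and over the 45 deviations from the group means r was 0.74. A high r with *sip-1* over the group means was common, as 1330 of the genes tested had an r above 0.9. With the mean of 8 embryo markers, several of them at 0 in many libraries, *sip-1* had an r of 0.89 and a rho of 0.93. Over the deviations that r was 0.405. *hsp-43* also ran with the oocyte markers over the group means (r 0.85, rho 0.87), but not over the deviations (r 0.12). Summed over the 12 markers, libraries at 257 h were near 18.8 in FEM and at 17.9 to 18.4 in GEM worms, and libraries at 41 h were at 14.0 to 14.4 in FEM and 8.08 to 10.7 in GEM worms. That sum was dominated in FEM worms by *perm-2* and *perm-4*, eggshell genes whose group means were 17.49 and 18.04 at 257 h, against 12.91 and 12.98 at 41 h. The part of oocytes or embryos in the *sip-1* level was not tested.

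**Figure D5:**
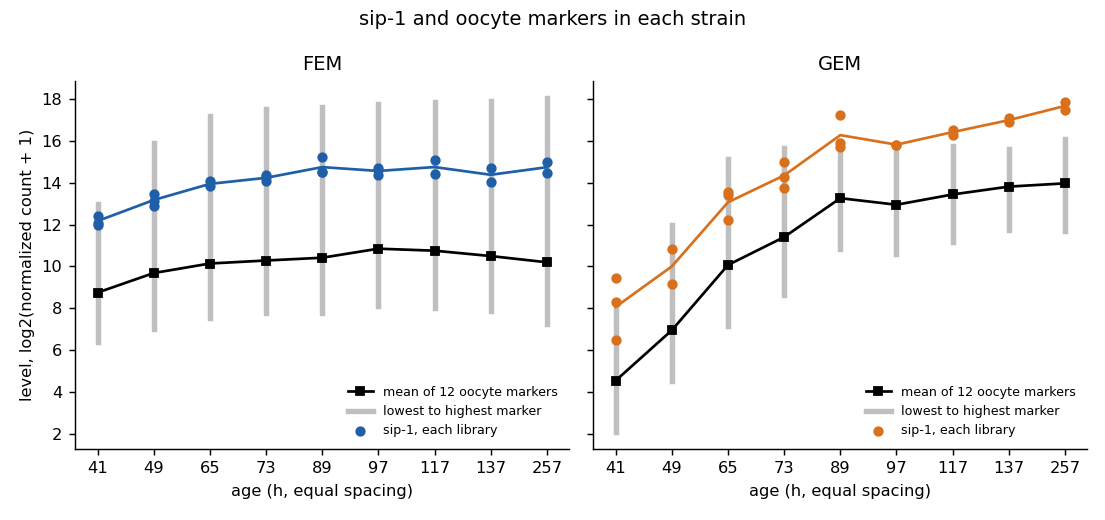
Log2 level of *sip-1* in each library (points, with a line through the group means), with the mean and range of the 12 oocyte markers at each age, FEM on the left and GEM on the right. In GEM worms both climb across adulthood, *sip-1* to 17.47 and 17.83 at 257 h, while in FEM worms *sip-1* stays between 11.99 and 15.21.

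Step by step through adulthood, the members that moved and the ages at which they moved differed. In FEM worms limma called 0 of 6 members from 49 h to day 2, from day 2 to day 3, and from day 3 to days 4 and 5, where 18.1%, 4.91%, and 2.75% of all genes changed. At an unadjusted p under 0.05 there were 4, 1, and 1. From days 4 and 5 to day 10, 2 of 6 members rose, among 24.7% of all genes: *hsp-12.3* by 2.02 ± 0.50 and *hsp-12.6* by 4.19 ± 0.72 (limma, adjusted p = 0.0023 and 2.7e-05). In GEM worms 3 of 6 members rose from 49 h to day 2, among 44.0% of all genes, namely *hsp-12.3* (1.50 ± 0.47), *hsp-43* (0.59 ± 0.19), and *sip-1* (3.70 ± 0.47). From day 2 to day 3, 1 of 6 rose, among 51.0% of all genes, which was *sip-1* (2.33 ± 0.35). From day 3 to days 4 and 5, 2 of 6 rose, among 37.6% of all genes, *hsp-12.6* (1.89 ± 0.56) and *hsp-43* (0.48 ± 0.16). From days 4 and 5 to day 10, 2 of 6 rose, among 20.6% of all genes, again *hsp-12.3* (2.17 ± 0.50) and *hsp-12.6* (3.08 ± 0.72, limma, adjusted p = 0.002 and 0.0024). Calls that rested on 1 library were those of *hsp-12.3* in the last FEM step without the first 257 h replicate (1.46, limma, adjusted p = 0.13), and in GEM worms those of *hsp-43* and *hsp-12.3* from 49 h to day 2 without the first or the second 49 h replicate (0.38 and 1.12, adjusted p = 0.25 and 0.16). In the last 2 GEM steps, the calls of *hsp-12.6* and *hsp-43* were lost without the first 117 h replicate (1.69 and 0.43, adjusted p = 0.054 and 0.073), that of *hsp-12.6* also without the second 97 h replicate (1.56, adjusted p = 0.063), and those of *hsp-12.3* and *hsp-12.6* without the first 257 h replicate (1.86 and 2.49, adjusted p = 0.052 and 0.071). The changes between days 5 and 10 were also compared between the strains, where limma called 0 of 6 members among 3.76% of all genes, with 0 at an unadjusted p under 0.05.

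Other small heat shock genes moved in both directions. Of 8 tested, 2 rose and 3 fell between days 1 and 10 in FEM worms, where 51.1% of all genes changed, and 3 rose and 4 fell in GEM worms, where 76.8% changed. Their median log2 changes were −0.13 and −0.32, beside 0.26 and 1.03 over all genes. *F08H9.3* rose in both strains, by 5.00 in FEM and 4.14 in GEM worms, though its exons share 304 bases with *F08H9.10* and *F08H9.14*. *hsp-12.1* and *hsp-12.2*, relatives of *hsp-12.3* and *hsp-12.6*, fell: *hsp-12.1* was 4.10 and 3.87 at 257 h, against 7.18, 6.68, and 7.27 at 41 h, in FEM worms, and 3.48 and 3.02, against 7.29, 7.05, and 7.49, in GEM worms. Their changes were −2.97 and −1.31 in FEM and −3.94 and −2.23 in GEM worms. *hsp-25*, whose protein is found at the dense bodies and M-lines of muscle, fell by 1.49 on the log2 scale in FEM and by 0.69 in GEM worms. Over the 9 ages, 3 of the 8 genes were higher and 1 was lower in FEM worms, a split that became 1 and 3 under quantile scaling and 0 and 8 under centering.

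Genes that control or work beside the small heat shock proteins were read from the same lists in both strains. Of 15 tested genes of the heat shock factor and its regulators, 12 rose in FEM and 14 in GEM worms between days 1 and 10, with 0 falling in FEM worms. For these counts and those of the chaperone lists, the share of all genes that rose was 28.9% in FEM and 55.1% in GEM worms. The share that changed in either direction was 51.1% in FEM and 76.8% in GEM worms. The median log2 changes of the 15 genes were 0.77 and 2.47. *hsf-1*, the heat shock factor itself, rose by 1.07 in FEM and 3.34 in GEM worms, and *daf-16* by 0.73 and 2.45. Other genes of this list that rose in GEM worms included *hsb-1* (1.45), *ddl-1* (3.54), *ddl-2* (2.62), *daf-2* (2.84), *age-1* (3.49), and *akt-1* (2.01). In FEM worms *daf-2* rose by 1.46, while *hsb-1*, *ddl-2*, and *pmk-1* were not called. The list was not split by the direction in which its genes act. Under quantile scaling the GEM counts were 11 risen and 2 fallen. Of 5 cytosolic Hsp70 and Hsp110 genes, 2 rose in FEM worms, *hsp-70* (2.15) and *F44E5.4* (2.28), and *hsp-110* fell (−0.45). In GEM worms 3 rose, *hsp-70* (3.53), *hsp-110* (2.01), and the constitutive *hsp-1* (1.59). Of 12 co-chaperone genes, 2 rose and 3 fell in FEM worms and 10 rose and 1 fell in GEM worms. Of 4 stress chaperones of the endoplasmic reticulum and mitochondria, 3 fell in FEM worms, including the mitochondrial *hsp-60* (−2.12), and 3 rose and 1 fell in GEM worms.

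The genes whose group means ran most like those of each member were named from the highest Pearson correlation over the 18 groups, outside the members themselves. The groups share libraries and ages. For *sip-1* these were *trcs-1*, *cyb-2.2*, and *F43D9.8* (r 0.99 each), the last being the gene that overlaps it. For *hsp-43* they were *F55B11.4* (0.98), *str-245* (0.97), and *clh-3* (0.97). *hsp-12.6* ran with *cyp-33C8* (0.97), *cnc-1* (0.94), and *ins-10* (0.93), and *hsp-12.3* with *hil-1* (0.92), *C23G10.11* (0.92), and *ZC416.2* (0.91). *hsp-16.2* and *hsp-16.41* ran closest with each other (0.95). Outside the members, the closest genes to *hsp-16.2* were *srab-12* (0.82), *Y110A7A.2* (0.82), and *fbxa-35* (0.80), and to *hsp-16.41* *fbxa-35*, *anr-53*, and *srab-12* (0.84 each). Such likeness was common for *sip-1*, with which 1330 of the genes tested had an r above 0.9. That number was 52 for *hsp-43*, 27 for *hsp-12.6*, 6 for *hsp-12.3*, and 1 each for *hsp-16.2* and *hsp-16.41*, members included.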

How the data were processed

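Whole-worm poly-A libraries were sequenced as single-end reads. The authors trimmed reads with Trim Galore 0.4.4, mapped them to WBCel235 with HISAT2 2.1.0 as non-directional, counted reads that exactly overlapped each gene with isoforms merged in SeqMonk, normalized the counts with DESeq2, and deposited log values. Per the submitters' processing notes, these are the tools, and the handling of reads with several matches is not given in the sources used here. The deposited values are natural logs, with 2 decimals, of the normalized count after adding 1. The base was read from the values: 100% of values of up to 12 reads were whole multiples of 1 read within 0.15. They were divided by the natural log of 2. Depth was estimated from these multiples, and counting precision is limiting for genes of a few reads.

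limma 3.58.1 (R 4.3.3, Python 3.11.15) was fitted with a mean for each of 18 groups and a trend, over the 16925 genes whose deposited values averaged 1 or more, with Benjamini-Hochberg adjustment, a threshold of 0.05, and a pseudocount of 1. Groups were taken from the labels, and 0 columns were unused. Named genes are all members, the other small heat shock genes, and the 3 genes most like each member. Genes of the heat shock lists qualified when called with an absolute log2 difference of at least 1, and only some of those are named. The FEM values of *hsp-110* and *daf-16* were given outside this rule, after they were seen. The members and lists were chosen with earlier results of these data known. Steps were tested on simulated data. Alternatives were other filters, scalings, a pseudocount of 8, no trend, only the groups compared, other baselines, and each of 45 libraries left out. Coordinates are from the Ensembl annotation of WBcel235. Sequences were not used here.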

Additional observations from a re-analysis of the deposited data

Results flagged for a closer look

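Of 14 small heat shock genes tested, 7 differed between the strains in their change from day 1 to day 10, where 62.4% of all genes differed, by a test of that difference (the FEM change minus the GEM change, log2 scale, limma). Of the members these were *sip-1* (−6.55) and *hsp-43* (−0.98). Of the other family genes, *hsp-12.1* (0.97), *hsp-12.2* (0.92), and *hsp-17* (0.91) had the higher change in FEM worms, and *hsp-25* (−0.80) and *Y55F3BR.6* (−1.78) the lower. The median of all genes was −0.84. *sip-1*, *hsp-12.1*, *hsp-12.2*, and *hsp-17* kept their sign and their call under both other scalings, while the differences of *hsp-43* and *hsp-25* turned to 0.34 and 0.47 under quantile scaling, and that of *Y55F3BR.6* was −0.23 there. Groups of 2 or 3 libraries were not tested for outlying libraries.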

How the results depend on the processing

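Leaving out each of the 45 libraries gave 3195 values over 71 results, of which 3115 kept their direction and their side of the threshold, and the other alternatives gave 521, of which 468 did. Scaling changed the sign of some strain differences and, within GEM worms, of *hsp-16.41*. Under quantile scaling the sign turned for *hsp-12.3* (−0.54) and *hsp-12.6* (−0.14) over the 9 ages, *hsp-43* at 257 h (0.23), *hsp-16.41* from day 1 to day 10 in GEM worms (−0.48), and the strain difference in that change for *hsp-12.3* (0.22) and *hsp-43* (0.34). Under centering it turned for *hsp-12.3* (−0.45) and *hsp-12.6* (−0.32) over the 9 ages, *hsp-43* at 41 h (−0.12), and *hsp-16.41* from day 1 to day 10 in GEM worms (−0.090). With a pseudocount of 8 the strain difference in the change of *hsp-12.6* was 0.27.

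The number of members called, of 6, moved by more than 1.5 times as follows. Under quantile scaling it was 4 over the 9 ages and at 65 h, 1 at 73, 89, 97, and 257 h, 0 for 49 against 41 h in FEM worms and day 10 against day 5 in GEM worms, and in GEM worms 2 from day 2 to day 3 and 1 from day 3 to days 4 and 5. Under centering it was 5 over the 9 ages, 4 at 65 h, 1 at 73 and 97 h, 2 at 117 h, 0 for 49 against 41 h in FEM worms, and 2 for day 3 against day 2 in GEM worms. With a minimum mean of 3, which leaves out *hsp-12.6*, it was 1 for day 10 against day 5 and against days 4 and 5 in both strains and for days 4 and 5 against day 3 in GEM worms. With no filter it was 1 at 89 h and for day 10 against day 5 in GEM worms, and with no trend it was 1 at 89 h. With only the groups compared in the fit it was 1 at 89 h, 3 at 97 h, 6 for 49 against 41 h, 4 from 49 h to day 2, and 1 from day 2 to day 3 in FEM worms, and in GEM worms 0 for 49 against 41 h, for day 10 against day 5, and from day 3 to days 4 and 5, 2 from day 2 to day 3, and 4 from days 4 and 5 to day 10. With the pseudocount of 8 it was 1 for days 4 and 5 against day 3 in FEM worms, and with 49 h alone as day 1 it was 1 for the strain difference in the change to day 10, which was 3 under quantile scaling, with only the groups compared, and with 41 h alone as day 1. The count at 49 h was 3 with no filter, the higher minimum, or the pseudocount of 8, and at 41 h it was 4 with only the groups compared. The cause of these moves was not tested, other than the gene left out by the higher minimum.

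With each library left out, the count ranged over 4 to 6 in FEM and 4 to 5 in GEM worms for day 10 against day 1, 3 to 4 at 41 h, 2 to 3 for 49 against 41 h and 2 to 4 for day 2 against 49 h in GEM worms, 0 to 3 at 89 h, 0 to 1 at 97 and 117 h, 1 to 2 at 257 h and over the 9 ages, 1 to 4 at 49 h, 1 to 3 for 49 against 41 h and 0 to 3 for day 2 against 49 h in FEM worms, 0 to 1 for days 4 and 5 against day 3 in FEM and 0 to 2 in GEM worms, 0 to 2 for day 10 against day 5 in both strains, 1 to 2 in FEM and 0 to 2 in GEM worms for day 10 against days 4 and 5, and 2 to 4 for the strain difference in the change to day 10. The difference between 49 and 41 h in GEM worms ranged over −0.17 to 0.96 for *hsp-16.2* and −0.038 to 1.32 for *hsp-16.41*, and the strain difference in the change of *hsp-12.6* over −1.74 to 0.18. With only the groups compared, far fewer genes in all were called for 49 against 41 h (114, against 3383) and day 10 against day 5 (130, against 1378) in GEM worms, for day 10 against day 5 in FEM worms (1813, against 2877), and at 89 h (4538, against 7490). At 73 and 97 h, quantile scaling called 10312 and 9198 and centering 10824 and 10648, against 6451 and 5918, and for the strain difference between days 5 and 10 quantile scaling called 963 and the pseudocount of 8 1194, against 636. The share of called genes that rose from day 1 to day 10 in GEM worms was 71.7%, against 51.7% under quantile scaling and 58.4% under centering. The analyses of steps between ages, the scaling of the other lists, and the values without the second FEM replicate at 89 h were chosen after seeing the data. No paired analysis was possible because the labels give no replicate number that groups share: the titles carry a serial number unique to each library, and the numbers used here follow accession order. Depth limits *hsp-12.6* before day 4, and the 4 duplicated copies have low counts with an uncertain assignment of reads.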
